A study of Mus musculus with 8 samples.

Results

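The unpurified medial prefrontal cortex (mPFC) RNA of mice injected in the ventral tegmental area (VTA) was compared with that of mice injected in the nucleus accumbens (NAC). The mice carried a ribosomal GFP tag that only cells with Cre recombinase express, and CAV2-Cre, a canine adenovirus that axon terminals take up and carry back to the cell body, was injected at 1 of the 2 targets. The cortex was then dissected and, in other samples of the series, tagged ribosomes were pulled down with GFP-trap. The samples described here are the inputs, for which the labels give no immunoprecipitation reagent, so they hold RNA of all cells of the dissected tissue and not only of the projecting neurons. A free text label on the same samples nevertheless calls them translating mRNA of the projecting cells.

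These are 4 of the 8 arrays of the series, with 2 NAC inputs and 2 VTA inputs, both groups from Cre-dependent ribosome-tag mice that had received CAV2-Cre. The labels give no age, sex, strain, interval after injection or number of animals per array, and name no uninjected or vehicle-injected sample. Each difference therefore sets one injected target against the other, and which of the groups departs from untreated cortex was not measured. Whether arrays 1 and 2 of a group come from separate animals is not given either, so a p-value here reflects the scatter among 4 arrays, which may be technical. Of 41345 probe sets, 23521 carried exactly 1 gene symbol and stood for 22180 genes, each read from 1 probe set, and 11268 genes passed the filter of at least 2 of the 4 arrays above the array's own median.

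Interferons are secreted by cells that sense viral nucleic acid or by activated lymphocytes, and act through receptors and STAT and IRF transcription factors on a large set of genes. Among those are antiviral effectors, large GTPases that attack the membranes around intracellular pathogens, chemokines that recruit lymphocytes, and the genes of antigen presentation by MHC class I and class II molecules. In healthy brain these genes are expressed at low levels and microglia are the main resident immune cells, while T cells and antibody-secreting plasma cells are rare.

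Values are log2 levels on the authors' scale, and a difference is the mean of the VTA inputs minus the mean of the NAC inputs, with its standard error (SE) from limma's moderated test over n = 2 and n = 2 arrays. A gene was called when its Benjamini-Hochberg adjusted p over all 11268 genes was under 0.05. By that rule 264 genes, or 2.34% of those tested, differed. Of these, 206 genes (1.83%) were lower in the VTA inputs and 58 (0.515%) were higher. The genes called lower had a median difference of -0.82, 72 of them differed by at least 2-fold and 24 by at least 4-fold. The genes called higher had a median of 0.48, and 2 of them reached 2-fold. The median over all genes tested was 0.06. For each called gene, the 2 arrays of one group lay entirely above the 2 arrays of the other. For single genes, an exact permutation test of 2 arrays against 2 cannot go below p = 0.333, and the number of arrays limits the precision.

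The number of calls moved with single arrays and with the filter, chiefly among the genes higher in the VTA inputs. Without NAC input 1 there were 435 calls, of which 207 were higher. Without VTA input 2 there were 432, of which 195 were higher, and without NAC input 2 there were 222, of which 28 were higher. The calls in the lower direction ranged from 194 to 243 over the 4 arrays left out in turn, and 163 of the 206 were called in all 4 of those fits against 13 of the 58 in the higher direction. Without a filter on low values there were 170 calls, of which 8 were higher. With each array centred on its own median, the share of calls that were higher was 12.5% against 22% on the scale as deposited.

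**Figure D1:**
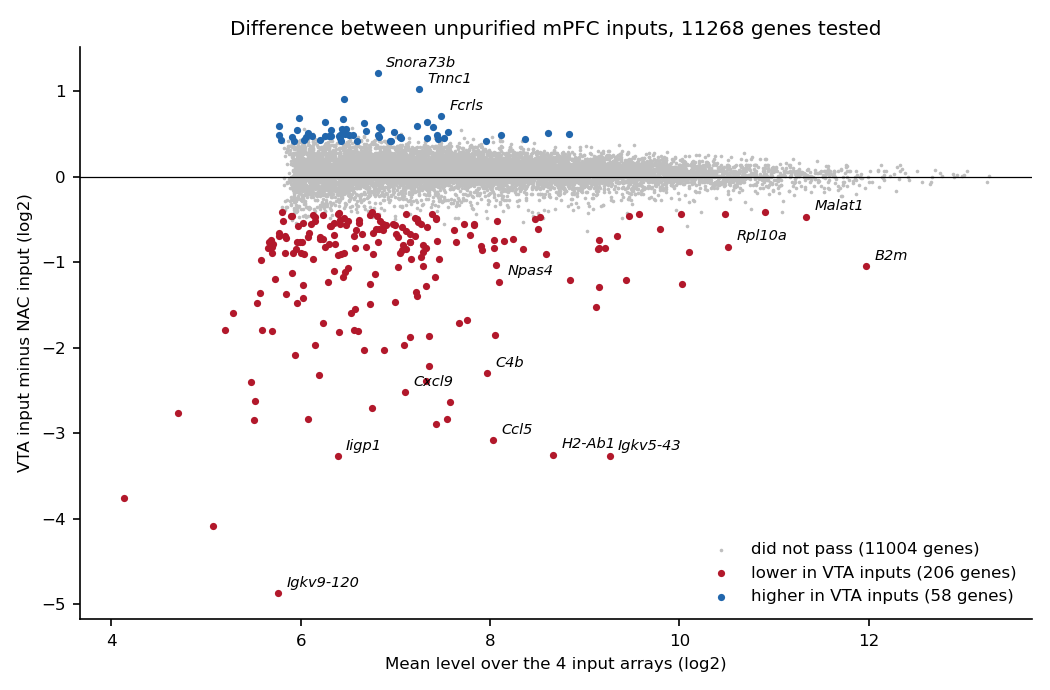
Difference between the VTA and NAC inputs (log2, y axis) against the mean level over the 4 arrays (log2, x axis), with 1 point for each of the 11268 genes tested. The 206 genes called lower in the VTA inputs (red) reach -4.87, while the 58 called higher (blue) stay at or under 1.21.

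Over 16 lists of interferon, antigen presentation, lymphocyte, chemokine, cytokine and myeloid genes, 335 genes were on the array and 173 were tested. Of the latter, 104 were lower in the VTA inputs (60.1%, against 1.83% of all genes tested) and 0 were higher by limma's test. The median difference of the 173 was -0.59, and 130 had an unadjusted limma p under 0.05. The list of resting microglia markers, described below, is not among the 16. Of its 20 tested genes, 4 were lower and 1 was higher. All lists were drawn up with earlier results of these data known, so these shares are a description and not a test. A gene near the array median in the NAC inputs and under it in the VTA inputs enters the test through the NAC arrays alone, and such a gene had to differ. There were 139 of these among all genes tested, 72 of them called lower, and 50 were members of these lists. Without them, 60 of the remaining 123 members were lower (48.8%), against 134 of 11129 genes (1.2%). Lists are therefore also given by how many members on the array, tested or not, had both NAC inputs above both VTA inputs. That held for 245 of the 335 members (73.1%) and the reverse for 17 (5.07%). Over all 22180 genes the shares were 18.6% and 25.9%.

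**Figure D2:**
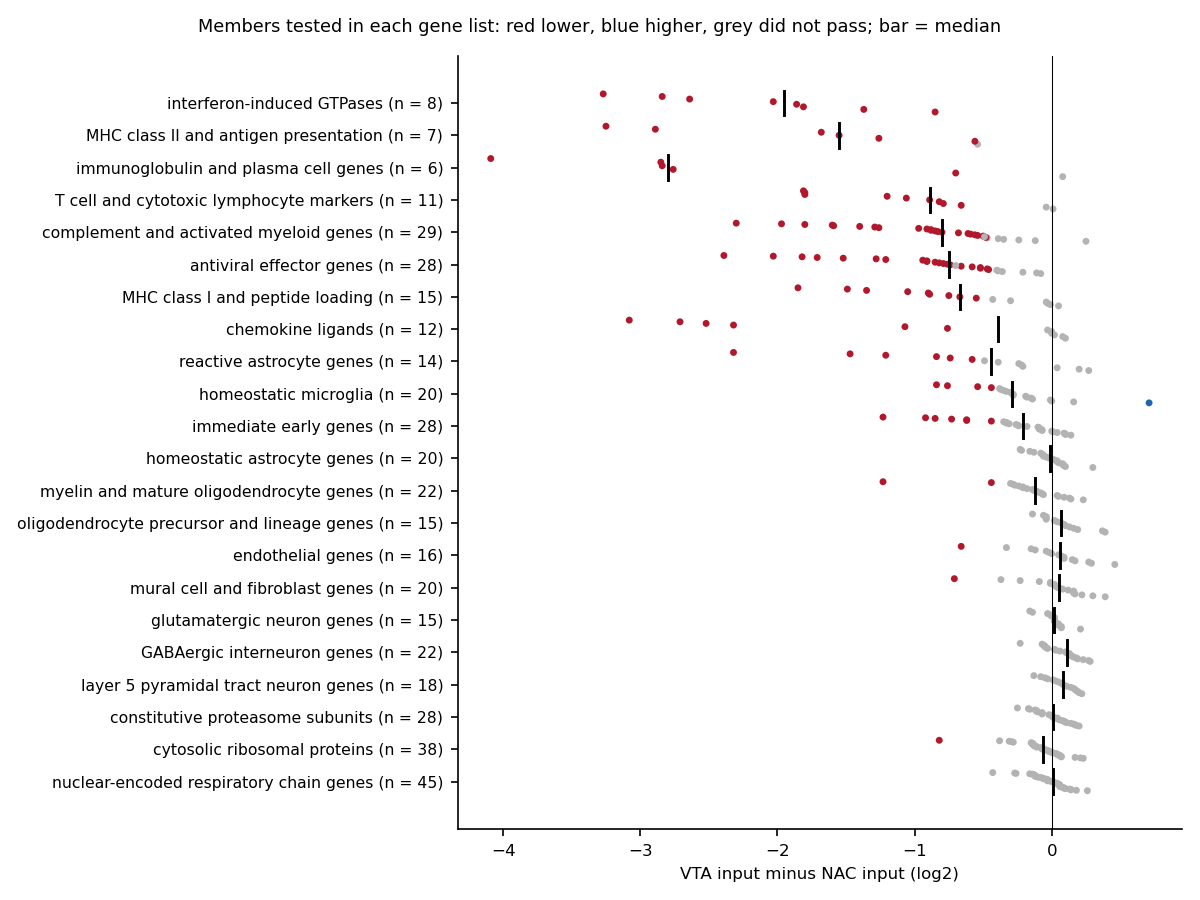
Difference between the VTA and NAC inputs (log2, x axis) for each tested member of 22 gene lists (y axis, with the number tested). Red points were lower, blue points higher and grey points did not pass, and the black bar is the list's median, which runs from -2.80 for immunoglobulin and plasma cell genes to 0.11 for GABAergic interneuron genes.

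Among the genes tested, the largest differences were in antibody genes. Igkv9-120, a variable segment of the kappa light chain, read 8.25 and 8.15 in the NAC inputs and 3.32 and 3.35 in the VTA inputs. Both NAC arrays were far above both VTA arrays, a difference of -4.87 (SE 0.09; limma adjusted p = 3e-10). The variable segments Igkv8-30 and Igkv6-14 differed by -4.09 and -3.76, each with both VTA arrays near the bottom of the scale. Igkv5-43 was bright in both groups, at 10.93 and 10.88 in the NAC inputs and 7.72 and 7.55 in the VTA inputs, a 9.64-fold difference (-3.27; SE 0.10; limma adjusted p = 1.2e-08). Jchain, the chain that joins polymeric antibodies in plasma cells, read 7.18 and 6.68 against 4.19 and 3.98, a difference of -2.85 (limma adjusted p = 5.7e-07). Igkj1, a kappa joining segment, differed by -2.84 and Ighg3, the IgG3 heavy chain, by -2.76. Of the 11 immunoglobulin and plasma cell genes on the array, 6 were tested, 4 of these through the NAC inputs alone, and 5 were lower. The members of this list, Igkv8-30 and Igkj1 among them, were chosen with earlier results known, so this count is not independent of the data. Both NAC inputs lay above both VTA inputs for 9 of the 11.

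The probe sets of antibody genes did not give 1 size. The brightest probe set of Ighm, the IgM heavy chain, differed by -0.70, and its other 6 probe sets ranged from -3.26 to -0.07. A second, dim probe set of Ighg3 differed by -0.29. Some antibody variable segments are similar in sequence to others, so which segment a probe set measured is uncertain. Where both VTA arrays lie under the array median (5.94 to 5.98 over the 4 arrays), as for Igkv9-120, Igkv8-30, Igkv6-14, Jchain, Igkj1 and Ighg3, the size of the difference is not exact; this held for 72 of the 206 genes called lower.

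**Figure D3:**
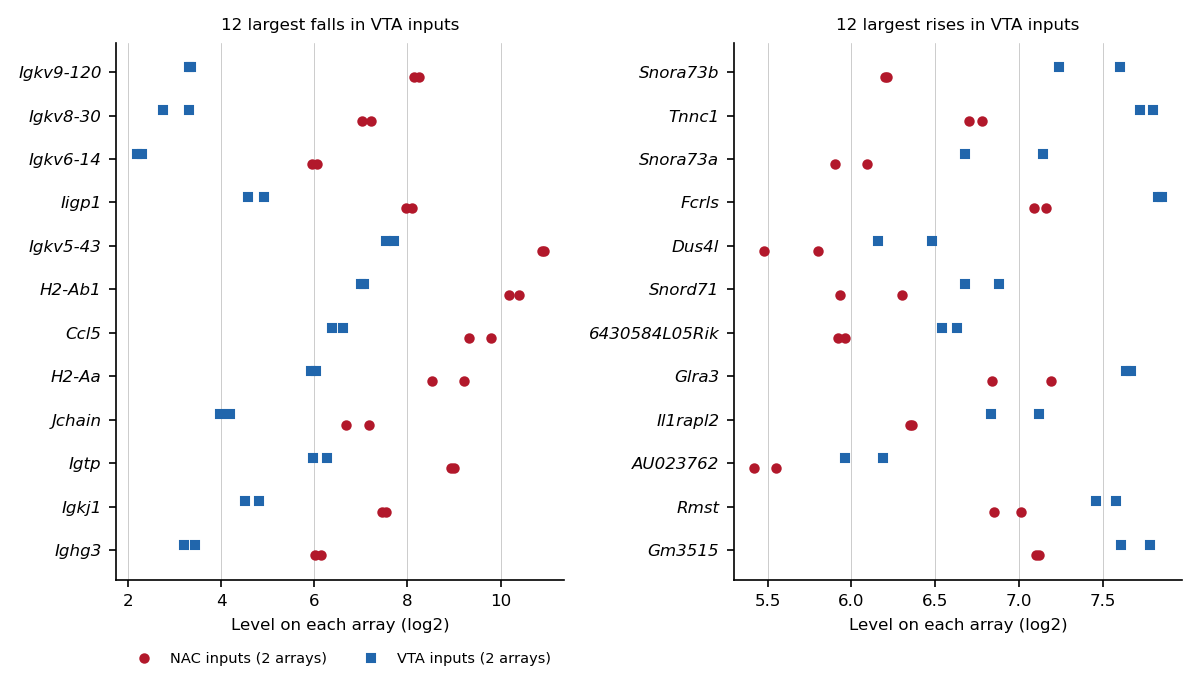
Level on each input array (log2, x axis) for the 12 genes with the largest falls (left) and the 12 with the largest rises (right) in the VTA inputs (y axis), NAC inputs as red circles and VTA inputs as blue squares. Rows were chosen among called genes whose groups do not overlap. Ccl5 reads 9.80 and 9.33 against 6.38 and 6.61, and Fcrls 7.09 and 7.16 against 7.83 and 7.85.

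T cell genes were lower in the VTA inputs as well. Cd3e, a signalling chain of the T cell receptor complex, read 7.55 and 7.48 in the NAC inputs and 5.62 and 5.78 in the VTA inputs. The groups were well apart, by -1.81 (SE 0.10; 3.51-fold; limma adjusted p = 7.4e-07). Cd3g, of the same complex, read 7.03 and 5.97 against 4.83 and 4.56, so that its NAC arrays differed from each other by about as much as the lower one differed from VTA input 1. Its difference of -1.80 had an SE of 0.25 and did not pass without the filter on low values or with an intensity trend and robust variance. Cd52, a surface glycoprotein of lymphocytes, differed by -1.80, Cd8b1, a chain of the cytotoxic T cell coreceptor, by -1.20, and Cd4, the helper T cell coreceptor that myeloid cells can also carry, by -0.82. Of 32 T cell and cytotoxic lymphocyte genes on the array, 11 were tested, 8 of these through the NAC inputs alone, and 9 were lower. Both NAC inputs lay above both VTA inputs for 26 of the 32. The summed log2 level of the 32 genes was 182.4 and 180.5 in the NAC inputs and 161.3 and 159.6 in the VTA inputs.

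Several lymphocyte genes stayed under the filter with the same order of arrays. Cd3d read 5.45 and 5.33 against 4.70 and 4.74, Cd8a read 5.90 and 5.68 against 4.69 and 5.06, and Gzma, a protease of cytotoxic granules, read 4.50 and 4.44 against 3.38 and 3.20. All of these lay under the array median and were not tested. The B cell receptor chains Cd79a and Cd79b were also under it, with Cd79b at 5.32 and 5.28 against 5.12 and 5.23. Of 9 B cell markers, 1 was tested and 0 were called, and at an unadjusted p under 0.05 that gene, Bank1, differed by 0.37. Both NAC inputs lay above both VTA inputs for 4 of the 9 (44.4%, against 18.6% of all genes). The reverse held for 3 (33.3%, against 25.9%). Of 25 neutrophil, monocyte and dendritic cell markers, 4 were tested and 1 was lower, the monocyte surface gene Ly6c2 at -1.13. For 10 of the 25 (40%) both NAC inputs lay above both VTA inputs, and for 5 (20%) the reverse held. The neutrophil genes S100a8 and S100a9 stayed under the filter, S100a8 at 3.99 and 3.68 against 3.76 and 3.60. In tissue RNA, fewer cells of a type and less RNA per cell cannot be told apart.

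Interferon receptors did not pass the test in either direction, and among the ligands 1 did. Of 12 interferon ligands and receptors on the array, 8 were tested and 1 was lower, while both NAC inputs lay above both VTA inputs for 9 of the 12. That was Ifnl3, a type III interferon, at -0.61 (SE 0.12; limma adjusted p = 0.02), a call lost without NAC input 2. Its near-identical neighbour Ifnl2 may share its signal. Ifngr1, a chain of the interferon gamma receptor, read 8.31 and 7.96 against 7.94 and 7.70, a difference of -0.32 (SE 0.13) that did not pass. Ifnar1, a chain of the type I interferon receptor, differed by 0.13 (SE 0.10) and did not pass either.

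Among 20 nucleic acid sensors and Toll-like receptors, 10 were tested, 4 of them through the NAC inputs alone, and 5 were lower. Both NAC inputs were above both VTA inputs for 16 of the 20. Zbp1, a sensor of left-handed nucleic acid, read 6.66 and 6.81 in the NAC inputs and 5.07 and 5.56 in the VTA inputs, a difference of -1.42 (SE 0.14; limma adjusted p = 0.00017). The cytosolic RNA sensors Ifih1 and Ddx58 differed by -0.77 and -0.71 and the DNA-sensing adaptor Sting1 by -0.58. Tlr3, the endosomal receptor for double-stranded RNA, differed by -0.16 and did not pass. Tlr2 stood just outside the threshold at -0.51 (limma adjusted p = 0.053) and passed with the arrays centred or quantile normalized.

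The transcription factors downstream of the receptors moved in part. Of 18 on the array, 14 were tested, 4 through the NAC inputs alone, and 6 were lower. For 12 of the 18, both NAC inputs lay above both VTA inputs. Usp18, an interferon-induced brake on the type I receptor, read 7.21 and 6.98 against 5.44 and 5.32, a difference of -1.71 (SE 0.11; limma adjusted p = 2.2e-06). Irf7, which amplifies type I interferon, read 7.33 and 7.40 against 6.14 and 6.06, a difference of -1.26. Irf9 and Stat2, partners in the factor that binds interferon-stimulated response elements, differed by -0.84 and -0.75, and Irf1, a target of interferon gamma, by -0.74. As for every called gene, the groups did not overlap in these 5.

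Antiviral effectors were the longest list to shift. Of 47 on the array, 28 were tested, 9 of these through the NAC inputs alone; 21 were lower, 0 were higher, and the median difference was -0.75. Both NAC inputs lay above both VTA inputs for 39 of the 47. Oasl2, of the family that senses double-stranded RNA, read 8.43 and 8.60 in the NAC inputs and 6.04 and 6.21 in the VTA inputs. The VTA arrays were close to the array median and the NAC arrays well over it, a 5.24-fold difference (-2.39; SE 0.10; limma adjusted p = 1.4e-07). Ifit1, which binds viral RNA caps, read 7.92 and 7.87 against 5.75 and 5.99 (-2.03), Isg15, a ubiquitin-like modifier, differed by -1.82, and Bst2, which tethers budding virions, read 8.52 and 8.53 against 6.80 and 6.85 (-1.71). Ifitm3, which blocks viral fusion, differed by -1.21. Ifit3 read 7.13 and 7.35 against 7.21 and 6.87, so its groups overlapped, and its difference of -0.21 (SE 0.13) did not pass. Ifit genes are similar in sequence to each other, and their assignment to single members is uncertain.

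Interferon-induced GTPases had the second largest median difference of the lists with 5 or more genes tested, -1.95. All 8 tested members were lower, 5 of these having entered the test through the NAC inputs alone. Among the 15 members on the array, both NAC inputs lay above both VTA inputs for 14. Iigp1 read 8.09 and 7.97 in the NAC inputs and 4.93 and 4.57 in the VTA inputs, a 9.68-fold difference (-3.27; SE 0.12; limma adjusted p = 5.6e-08). Igtp read 8.94 and 9.0 against 6.27 and 5.98, a 7.18-fold difference (-2.84; SE 0.11; limma adjusted p = 6.2e-08). These immunity-related GTPases act on vacuoles that hold parasites or bacteria. Their regulators Irgm2 and Irgm1 differed by -2.03 and -1.81. The guanylate-binding proteins Gbp10, at 9.12 and 8.67 against 6.25 and 6.27, and Gbp7, at 8.18 and 8.41 against 6.42 and 6.44, differed by -2.64 and -1.86. Gbp3 differed by -1.37. Gbp genes are close copies of each other, and the split between them is uncertain.

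Promoters of these genes are shown because the members that fell together belong to families with known interferon elements. The RefSeq promoter table (GRCm38.p6; 250 bases before to 50 after the start site) was searched on both strands for the core of the interferon-stimulated response element (ISRE), GAAA and again GAAA after any 2 bases, and for the gamma-activated sequence (GAS), TTCNNNGAA. Below, 5′ to 3′ on the gene's strand, capitals mark matches, and a match is a description of letters and not a shown binding site. Igtp (chr11:58199306-58199605, plus strand), Irgm2 (chr11:58214727-58215026, plus strand) and Ifit1 (chr19:34640639-34640938, plus strand) were the members of the interferon lists with the largest differences that had a match and could be printed. Ctss (chr3:95526536-95526835, plus strand), the endosomal protease that trims the class II invariant chain, was the 1 class II list member called lower that had a match.
Igtp: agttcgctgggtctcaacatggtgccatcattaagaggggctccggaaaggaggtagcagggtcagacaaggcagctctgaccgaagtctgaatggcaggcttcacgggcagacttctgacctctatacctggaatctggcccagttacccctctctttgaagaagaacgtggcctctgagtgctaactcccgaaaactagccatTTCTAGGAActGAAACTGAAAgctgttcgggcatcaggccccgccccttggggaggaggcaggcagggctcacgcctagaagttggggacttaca
Irgm2: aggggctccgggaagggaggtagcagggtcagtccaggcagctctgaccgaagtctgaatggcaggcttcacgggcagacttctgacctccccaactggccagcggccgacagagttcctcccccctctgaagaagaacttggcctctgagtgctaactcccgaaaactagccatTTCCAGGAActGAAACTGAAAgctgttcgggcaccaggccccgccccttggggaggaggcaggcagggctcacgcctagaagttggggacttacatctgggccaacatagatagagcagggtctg
Ifit1: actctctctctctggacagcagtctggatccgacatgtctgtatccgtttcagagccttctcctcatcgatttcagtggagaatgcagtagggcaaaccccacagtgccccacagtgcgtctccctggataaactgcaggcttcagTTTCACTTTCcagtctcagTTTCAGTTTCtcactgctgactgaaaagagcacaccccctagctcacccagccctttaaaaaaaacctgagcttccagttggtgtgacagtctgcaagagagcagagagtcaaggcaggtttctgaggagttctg
Ctss: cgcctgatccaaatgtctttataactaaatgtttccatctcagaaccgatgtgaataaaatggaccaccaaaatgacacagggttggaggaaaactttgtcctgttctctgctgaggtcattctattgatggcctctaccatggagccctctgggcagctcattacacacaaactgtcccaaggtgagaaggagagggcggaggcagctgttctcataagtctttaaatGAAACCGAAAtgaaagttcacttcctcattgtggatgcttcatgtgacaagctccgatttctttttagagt

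In Igtp the ISRE match GAAACTGAAA began at -34 from the start site and the GAS match TTCTAGGAA at -45. Irgm2 held the same ISRE letters at -64 and the GAS match TTCCAGGAA at -75, so that the pair of matches had the same spacing in both genes. Ifit1 had 2 ISRE matches on the opposite strand, at -104 and -85, and no GAS match in this window, and Ctss had 1 ISRE match, GAAACCGAAA, at -21. Over the interferon transcription factors, antiviral effectors and GTPases called lower, 27 of 35 genes had a promoter in the table, and 13 of these (48.1%) held an ISRE match and 11 (40.7%) a GAS match. Over all members of these lists on the array with a promoter, called or not, 27 of 58 (46.6%) held an ISRE match and 15 (25.9%) a GAS match, so the ISRE share was about the same among the called members as in the lists as a whole. Members tested and not called held an ISRE match in 4 of 13 cases (30.8%). In the class I list 2 of 7 genes called lower held an ISRE match and 1 a GAS match. In the class II list Ctss was the 1 of 5 with an ISRE match, and 0 of 5 had a GAS match, so Ctss does not stand for that list. Over all tested genes with a promoter, 8963 in number, the shares were 3.48% and 7.91%, and over the 27025 RefSeq promoters they were 3.99% and 9.55%. Among all 145 genes called lower with a promoter, 17.9% held an ISRE match and 18.6% a GAS match, and among 45 called higher 11.1%, which is 5 genes, and 8.89%.

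**Figure D4:**
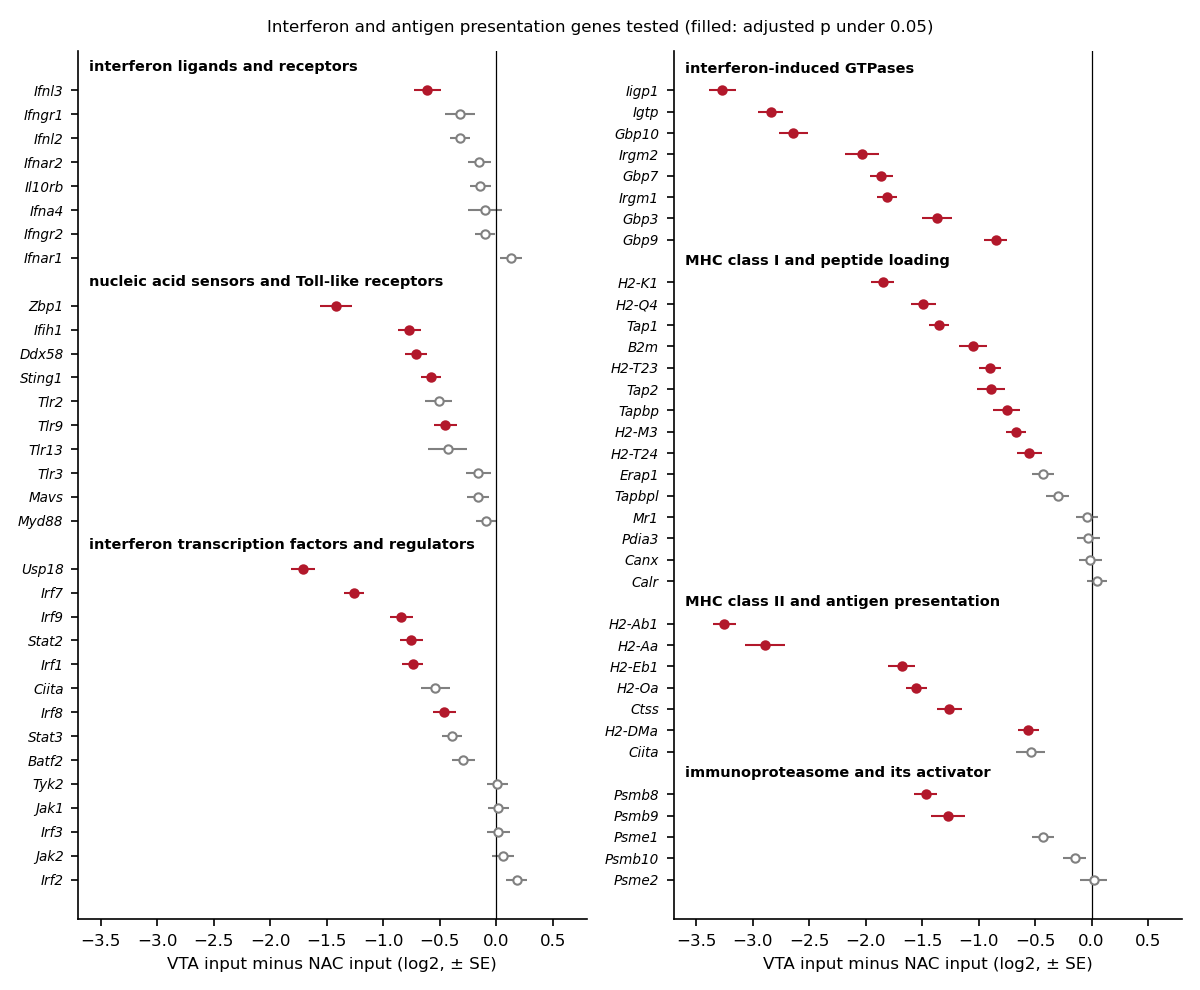
Difference between the VTA and NAC inputs (log2, x axis; bars are ± SE, n = 2 and 2 arrays) for every tested member of 7 interferon and antigen presentation lists (y axis), filled where the limma adjusted p was under 0.05. All 8 GTPases are filled, from -3.27 for Iigp1, while the interferon receptors Ifngr1 (-0.32) and Ifnar1 (0.13) are open.

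MHC class II genes, which display peptides to helper T cells, were lower in the VTA inputs by up to 9.5-fold. H2-Ab1, the beta chain of the I-A molecule, read 10.40 and 10.19 in the NAC inputs and 7.01 and 7.07 in the VTA inputs, all above the array median. Its difference was -3.25 (SE 0.10; limma adjusted p = 1.4e-08). The alpha chain H2-Aa read 9.22 and 8.52 against 6.03 and 5.93, with more spread between the NAC arrays (-2.89; SE 0.18; limma adjusted p = 2.1e-06). H2-Eb1, the beta chain of I-E, differed by -1.68 and H2-Oa, which restrains peptide exchange, by -1.55. Of 15 listed genes on the array 7 were tested, 2 through the NAC inputs alone, and 6 were lower, Ctss among them at -1.26. The remaining one, the class II transactivator Ciita, differed by -0.54 and stood just outside the threshold (limma adjusted p = 0.051). Both NAC inputs lay above both VTA inputs for 13 of the 15.

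MHC class I genes and the peptide loading machinery gave smaller differences. H2-K1, a classical class I heavy chain, read 8.95 and 9.02 against 7.01 and 7.24, a 3.61-fold difference (-1.85; SE 0.10; limma adjusted p = 1e-06). H2-Q4 differed by -1.49, and the peptide transporter subunit Tap1, at 7.87 and 7.92 against 6.55 and 6.53, by -1.35. B2m, the light chain of all class I molecules, read 12.54 and 12.46 against 11.64 and 11.25, a 2.08-fold difference (-1.05; SE 0.12; limma adjusted p = 0.00051). Tapbp, which tethers class I to the transporter, differed by -0.75, a call lost without the filter on low values, and its second, dim probe set by -0.16. Of 21 genes on the array, 15 were tested, 2 through the NAC inputs alone, and 9 were lower; the NAC inputs were both above the VTA inputs for 13 of the 21. Class I heavy chains are near-identical to each other, so values of single H2 genes are uncertain.

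The proteasome differed by subunit. Psmb8 and Psmb9, catalytic subunits that replace constitutive ones under interferon, read 7.77 and 7.69 against 6.17 and 6.36, and 6.94 and 6.38 against 5.39 and 5.39. Their differences were -1.47 and -1.27 (limma adjusted p = 5.7e-06 and 0.00051). The remaining inducible catalytic subunit, Psmb10, read 9.01 and 9.04 against 8.77 and 8.98, with -0.15 (SE 0.10) not past the threshold. Of 28 constitutive subunits tested, 0 were called by limma, with a median of 0.01, and the constitutive catalytic subunits Psmb5 and Psmb6 differed by -0.07 and 0.09.

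Chemokine ligands ranged from large differences to values near 0. Ccl5, a T cell and monocyte attractant, read 9.80 and 9.33 in the NAC inputs and 6.38 and 6.61 in the VTA inputs, an 8.44-fold difference (-3.08; SE 0.14; limma adjusted p = 2.7e-07). Cxcl13, which attracts B cells, read 8.25 and 7.96 against 5.34 and 5.46 (-2.71). Cxcl9 and Cxcl10, interferon-induced ligands of the T cell receptor Cxcr3, read 8.26 and 8.46 against 5.92 and 5.76 (-2.52) and 7.42 and 7.28 against 5.17 and 4.90 (-2.32). The VTA values of Cxcl13, Cxcl9 and Cxcl10 were under the array median, so these sizes are not exact. The other 2 called ligands, Cxcl16 and Ccl3, named because their count is small and after their values were seen, differed by -1.07 and -0.76. Cxcl12, a constitutive chemokine, read 8.65 and 8.66 against 8.71 and 8.65, a difference of 0.02 (SE 0.09). Of 26 ligands on the array, 12 were tested, 4 through the NAC inputs alone, and 6 were lower, and both NAC inputs lay above both VTA inputs for 18 of the 26.

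Of 16 chemokine receptors, 4 were tested and 0 were called by limma. For 9 of the 16 (56.2%, against 18.6% of all genes), both NAC inputs lay above both VTA inputs, and the reverse held for 0. Cxcr6, carried by activated T cells, was under the filter at 4.77 and 4.66 against 3.57 and 4.04. Of 26 cytokines and cytokine receptors, 13 were tested and 4 were lower. Both NAC inputs lay above both VTA inputs for 15 of the 26 (57.7%), and the reverse held for 2. The genes called lower were the oncostatin M receptor Osmr at -0.58, the TNF receptor Tnfrsf1a at -0.55, Il10ra at -0.47 and the IL-18 inhibitor Il18bp at -0.45. The calls of Osmr, Il10ra and Il18bp were each lost when 1 array was left out, Osmr without VTA input 2, Il10ra without NAC input 1 or VTA input 1, and Il18bp without NAC input 1, NAC input 2 or VTA input 1. Tnf, under the filter, read 5.53 and 5.63 against 4.78 and 4.86, while Il1b, at 5.12 and 4.68 against 4.58 and 4.87, overlapped between groups.

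Complement and activated myeloid genes shifted broadly. Of 42 on the array, 29 were tested, 7 through the NAC inputs alone; 22 were lower, 0 were higher, and the median difference was -0.80. Both NAC inputs lay above both VTA inputs for 38 of the 42, and the summed log2 level was 291.3 and 290.3 in the NAC inputs against 260.2 and 260.4. C4b, a complement component made by several brain cell types, read 9.0 and 9.24 against 6.63 and 7.01, a 4.92-fold difference (-2.30; SE 0.13; limma adjusted p = 1.3e-06). Cybb, the catalytic subunit of the phagocyte oxidase, differed by -1.97, the fungal glucan receptor Clec7a by -1.80 and the Fc receptor Fcgr4 by -1.60. The subunits of C1q, which start the classical complement cascade and come from microglia, differed by -0.91 for C1qa, -0.88 for C1qb and -0.83 for C1qc. C1qb was bright in every array, at 10.48 and 10.61 against 9.55 and 9.78.

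Markers of resting microglia gave smaller differences, mostly below 0. Of 20 tested, 4 were lower and 1 was higher, with a median of -0.29, and 18 had a negative difference. Both NAC inputs lay above both VTA inputs for 16 of the 21 on the array and the reverse held for 2. The summed log2 level of all 21 on the array was 165.7 and 165.9 in the NAC inputs against 161.5 and 160.6. Ly86, a partner of a Toll-like receptor homologue, differed by -0.84, the lipid receptor Trem2 by -0.76, and Aif1, the Iba1 protein, by -0.54, the last lost without NAC input 1. The growth factor receptor Csf1r read 9.36 and 9.36 against 8.99 and 9.07 (-0.33; SE 0.09) and Tmem119 7.34 and 7.09 against 6.88 and 6.86 (-0.35; SE 0.11), and neither passed. The fractalkine receptor Cx3cr1 (-0.30) and the purinergic receptor P2ry12 (-0.14) did not pass either. Fcrls, an Fc receptor-like gene typical of microglia, ran the other way: it read 7.09 and 7.16 in the NAC inputs and 7.83 and 7.85 in the VTA inputs. With a difference of 0.71 (SE 0.09; 1.64-fold; limma adjusted p = 0.001), it was 1 of the 3 genes called higher under every alternative that tested them.

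**Figure D5:**
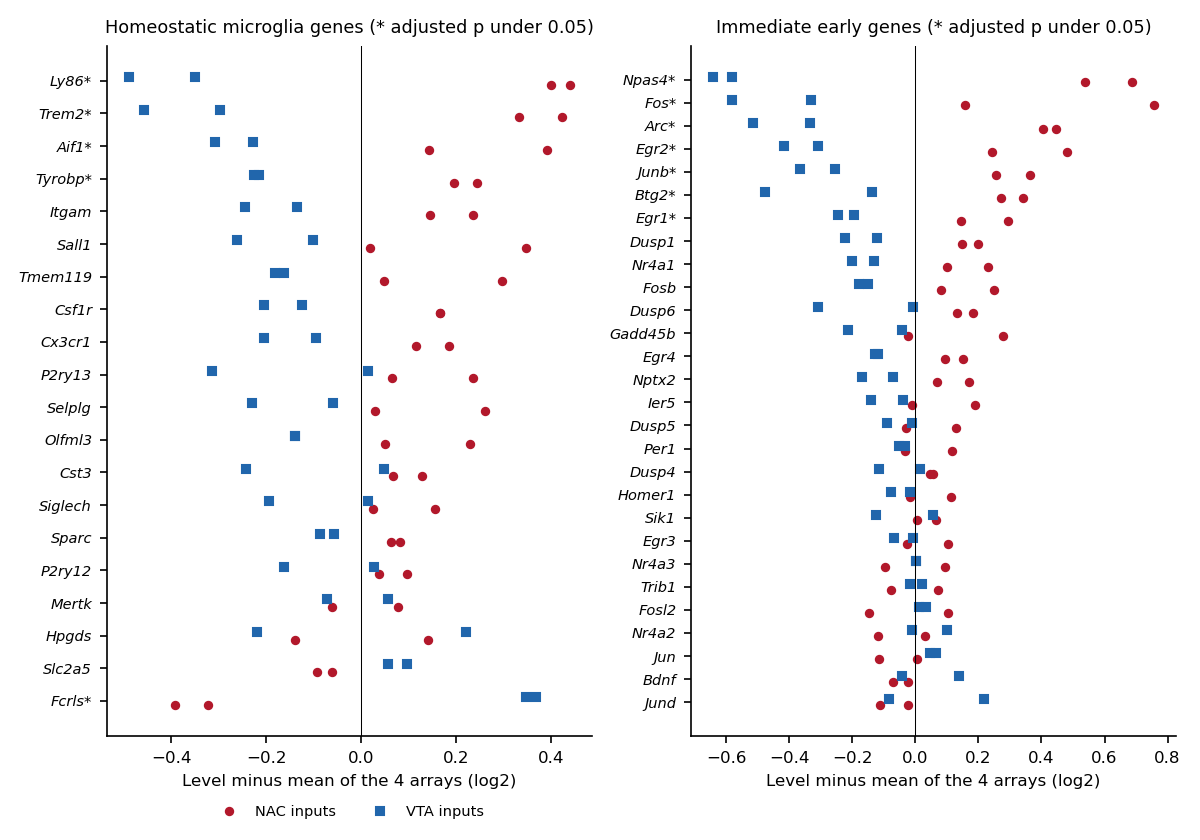
Level on each input array minus the gene's mean over the 4 arrays (log2, x axis) for the tested homeostatic microglia genes (left) and immediate early genes (right; y axes), NAC inputs as red circles, VTA inputs as blue squares, and an asterisk where the limma adjusted p was under 0.05. Fcrls is the microglia gene called higher in the VTA inputs, at 0.71, and the immediate early genes run from -1.23 for Npas4 to 0.14.

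Astrocyte genes separated by kind. Of 14 reactive astrocyte genes tested, 6 were lower, with a median of -0.44, although Cxcl10, Psmb8 and Osmr are counted in other lists too. For 16 of the 26 on the array, both NAC inputs lay above both VTA inputs. Serpina3n, a secreted protease inhibitor, read 10.04 and 10.04 against 8.89 and 8.78 (-1.21; SE 0.09; limma adjusted p = 1.8e-05). The intermediate filament genes Gfap, at 9.65 and 9.50 against 8.74 and 8.74, and Vim, at 9.55 and 9.49 against 8.79 and 8.77, differed by -0.84 and -0.74. Of 20 homeostatic astrocyte genes tested, 0 were called by limma, with a median of -0.01, and both NAC inputs were above both VTA inputs for 3 of 21. The glutamate transporters Slc1a2 and Slc1a3 differed by -0.06 and 0.00, the water channel Aqp4 by -0.13 and the gap junction gene Gja1 by -0.04.

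Myelin genes had 2 calls and a lean to lower values. Of 22 tested, 16 had a negative difference, with a median of -0.12, and both NAC inputs lay above both VTA inputs for 11. The protease Klk6, at 6.98 and 6.82 against 5.72 and 5.62, was lower by 2.35-fold (-1.23; limma adjusted p = 2.4e-05). Apod, a lipid carrier, differed by -0.44, a call lost without any one of 3 arrays (NAC input 1, NAC input 2 or VTA input 2), and the myelin genes Mbp (0.04), Mobp (-0.13) and Mag (-0.27) did not pass. Of 15 oligodendrocyte precursor and lineage genes, 0 were called by limma, Pdgfra reading 8.33 and 8.22 against 8.53 and 8.80 (0.39; SE 0.11). Icam1, the adhesion molecule that leukocytes grip on vessel walls, was the 1 endothelial gene of 16 called, at -0.66, while the endothelial genes Cldn5 (-0.15), Pecam1 (-0.02) and Cdh5 (0.27) did not pass. Col1a1, a fibrillar collagen, was the 1 gene of 20 in the mural cell and fibroblast list, at -0.71. The shares called lower were 9.09% of myelin, 6.25% of endothelial and 5% of mural cell and fibroblast genes, against 1.83% of all genes tested. For 3 of 23 endothelial (13%) and 4 of 24 mural cell and fibroblast genes on the array (16.7%), both NAC inputs lay above both VTA inputs. Over all genes that share was 18.6%.

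Neuronal identity genes were not called in either direction. Over 8 lists of neuron types, 108 genes were tested and 0 passed limma's adjusted threshold, while 12 had an unadjusted p under 0.05. Their differences ran from -0.24 to 0.37 with a median of 0.08, beside 0.06 over all genes. By the order of the arrays they leaned the other way from the immune lists. Both VTA inputs lay above both NAC inputs for 51 of the 125 on the array (40.8%, against 25.9% of all genes), among them 7 of 13 layer 2/3, 8 of 14 layer 5 intratelencephalic, 10 of 18 layer 5 pyramidal tract and 10 of 24 GABAergic interneuron genes. The reverse held for 16 of the 125 (12.8%). The lean was not seen in every list. Both VTA inputs lay above both NAC inputs for 5 of 17 glutamatergic genes (29.4%), near the share of all genes. The count was 6 of 17 (35.3%) in the layer 6 and subplate list and in the striatal and septal list. Among 11 dopamine and monoamine neuron genes it held for 3 (27.3%), and both NAC inputs were above for 5 (45.5%). The cortical excitatory genes Slc17a7, the vesicular glutamate transporter, and Camk2a, a synaptic kinase, read 11.79 and 11.73 against 11.61 and 11.60 (-0.16; SE 0.09) and 11.85 and 11.89 against 11.88 and 11.88 (0.02; SE 0.09). Fezf2 and Bcl11b, transcription factors of subcortically projecting layer 5 neurons, differed by -0.03 (SE 0.09) and 0.18 (SE 0.10), the layer 2/3 factor Cux2 by 0.10 (SE 0.11) and the layer 6 factor Foxp2 by 0.12 (SE 0.10). The GABA-synthesis genes Gad1 and Gad2 differed by -0.04 (SE 0.11) and -0.03 (SE 0.09). These defining markers were well above the array median in all 4 arrays except Gad1, which read 6.14 to 6.37. The dopamine transporter Slc6a3, a marker of midbrain dopamine neurons, lay under the filter at 5.58 and 5.42 against 4.84 and 5.01. Differences of this size do not show that the genes were equal.

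Immediate early genes, which neurons transcribe within minutes of activity, were in part lower in the VTA inputs. Of 28 tested, 7 were lower (25%, against 1.83% of all genes tested) and 0 higher, with a median of -0.21. For 19 of the 30 on the array (63.3%, against 18.6% of all genes), both NAC inputs lay above both VTA inputs. The reverse held for 1 (3.33%, against 25.9%). Npas4, an activity-dependent transcription factor of neurons, read 8.63 and 8.78 in the NAC inputs and 7.51 and 7.45 in the VTA inputs, a 2.35-fold difference (-1.23; SE 0.10; limma adjusted p = 2e-05). Arc, a synaptic capsid-like protein, read 9.55 and 9.59 against 8.63 and 8.81 (-0.85; SE 0.10; limma adjusted p = 0.00048). Fos read 6.55 and 7.15 against 5.81 and 6.06, with a wide gap between the NAC arrays (-0.92; SE 0.17; limma adjusted p = 0.012). Egr2 differed by -0.73 and Egr1 by -0.44, the latter lost without NAC input 2 or VTA input 2, while Fosb (-0.33; SE 0.10) did not pass. Without the filter on low values, when all 22180 genes were tested, only 2 of the 7 calls in this list were made, those of Npas4 and Arc.

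The 58 genes higher in the VTA inputs were not concentrated in the lists, which held 3 of them: Fcrls, Adcyap1 and Snord71. The largest was Snora73b, a small nucleolar RNA, at 6.20 and 6.21 in the NAC inputs and 7.24 and 7.60 in the VTA inputs (1.21; SE 0.12; 2.32-fold; limma adjusted p = 0.00014). Its close relative Snora73a read 5.90 and 6.09 against 6.68 and 7.14 (0.91; SE 0.14), a call lost without the filter on low values. Snora73a and Snora73b are similar copies and may share signal. Tnnc1, the slow skeletal and cardiac troponin C, read 6.78 and 6.70 against 7.80 and 7.72 (1.02; SE 0.09; 2.03-fold; limma adjusted p = 7.2e-05). Tnnc1, Snora73b and Fcrls were the 3 higher genes called under every alternative that tested them. Others among the 12 largest were Dus4l, a tRNA-modifying enzyme gene, at 0.68, Glra3, a glycine receptor subunit, at 0.64, Il1rapl2, of the interleukin-1 receptor family, at 0.63, and the long noncoding RNA Rmst at 0.59. The neuropeptide gene Adcyap1, which codes for PACAP, read 7.34 and 7.23 against 7.75 and 7.71 (0.45; SE 0.09; limma adjusted p = 0.033), a call lost when the arrays were centred or quantile normalized and without NAC input 2 or VTA input 1. Dus4l and Glra3 lost their calls without NAC input 2.

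In the list of small nucleolar and related RNAs, 26 were tested. Snord71 was higher at 0.67, lost without NAC input 2, and Snord82 lower at -0.49, lost without NAC input 1 or VTA input 2. Each of these calls was 3.85% of the list, beside 0.515% of all genes tested called higher and 1.83% called lower. The list does not hold every called small nucleolar RNA. Snora73b and Snora73a, both higher, stand outside it. So does Snord83b, named after its value was seen, which was lower (-0.89; SE 0.13; limma adjusted p = 0.0033). Of 38 cytosolic ribosomal protein genes tested, 1 was lower (2.63%, against the same 1.83%). It was Rpl10a, the ribosomal protein that carries GFP in widely used ribosome-tag lines, although the labels do not name the tagged protein. Rpl10a read 10.92 and 10.94 in the NAC inputs and 9.87 and 10.35 in the VTA inputs, a 1.76-fold difference (-0.82; SE 0.14; limma adjusted p = 0.0079) that did not pass without the filter on low values. Whether its probe set also reads a tagged transgene is not given. Of 45 nuclear-encoded respiratory chain genes tested, 0 were called by limma, with a median of 0.01.

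Across the 4 arrays as a whole, the array medians of named genes spanned 5.94 to 5.98. Over all probe sets the NAC inputs correlated at 0.9914 and the VTA inputs at 0.9903, and arrays of different groups at 0.985 to 0.9884, a description across genes. Of the sex-linked genes under the filter, Xist read 6.01 and 5.62 against 5.33 and 5.15, with the NAC inputs above the VTA inputs, and the Y-linked Kdm5d, Uty and Eif2s3y overlapped between groups. The lists of T cell, immunoglobulin, activated myeloid and interferon genes moved together over the same 4 arrays. The list of B cell markers did not. Its mean lay at -0.04 and 0.126 in the NAC inputs and -0.022 and -0.064 in the VTA inputs, relative to its mean over the 4 arrays. The part of any one cell type in the lists of others was not tested. Injection target, animal, dissection and handling cannot be told apart in this design.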

How the data were processed

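RNA of 4 mPFC inputs was hybridised to 1-colour microarrays, 1 array per sample. The authors deposited normalized log2 values, made with Transcriptome Analysis Console per the submitters' processing notes; its version, its normalization settings and any background correction are not given. Probe sets were named from GEO's platform annotation, and those with exactly 1 symbol were kept (23521 of 41345; 23328 found in the RefSeq GRCm38.p6 table). For each of 22180 genes the probe set brightest on average in the inputs was used. Genes above the array median on at least 2 of the 4 arrays were tested with limma 3.58.1 in R 4.3.3 (lmFit and eBayes, 2 groups of 2), with Benjamini-Hochberg adjusted p under 0.05 over the 11268 genes.

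The text names the 12 largest differences in each direction, up to 4 called members per list and fixed anchor genes. Members, the 45 lists and tests were chosen with earlier results of these data known. The code was tested on simulated data. Alternatives were all 8 arrays in 1 fit, other filters, scalings, probe set rules and variance models, a replicate block and each array left out.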

Additional observations from a re-analysis of the deposited data

Results flagged for a closer look

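Probe sets without exactly 1 gene symbol stood outside the comparison but moved with it. They were fitted with all other probe sets that had at least 2 of the 4 arrays above the array's median over all probe sets. That median was 5.08 to 5.17, against 5.94 to 5.98 over named genes, so the filter was looser than in the main comparison. In this fit 106 of 5255 probe sets with no symbol were called (2.02%). Of these, 92 were lower and 14 higher in the VTA inputs, with a largest fall of -6.3. Of 1045 probe sets with several symbols, 17 were called (1.63%), 16 lower and 1 higher, with a largest fall of -4.2. In the same fit 147 of 14851 probe sets with 1 symbol were called (0.99%). What the unnamed probe sets measure was not analysed here.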

How the results depend on the processing

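All 206 lower calls were also made with arrays centred, quantile normalized or cyclic loess normalized. No named gene that was called in the main fit or in an alternative turned its direction between them. The signs of named genes called in neither fit were not compared. Of the 264 calls, 120 (117 lower, 3 higher) were made under every alternative that tested them. Higher calls numbered 37 when centred and 15 with all 8 arrays in the fit, where 8.33% of calls were higher. Without a filter on low values there were 170 calls, 8 of them higher, with 13 GTPases, 3 sensors and 2 immediate early genes lower. With all 4 arrays required over their median there were 159 calls, 38 higher and 121 lower, with 11 antiviral effectors, 3 interferon transcription factors, 3 GTPases, 2 sensors, 1 chemokine ligand, 1 immunoglobulin gene and 1 T cell gene lower, fewer because genes low in the VTA inputs are not tested there. Leaving out 1 array at a time gave 222 to 435 calls, 28 to 207 of them higher. With the replicate number as a block there were 665 calls, 335 higher and 330 lower; same-numbered deviations correlated at 0.234 over 2 pairs, and the labels do not say that a number marks a shared batch, so the number was not taken as a pairing. Other than the filter and the arrays left out, the cause of these shifts was not tested. Signal near background limits the size of differences where the VTA inputs lie under the array median.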

Other observations

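Of the genes called lower in the VTA inputs, 82 were in no list, and those named here were chosen after their values were seen. Several have known immune roles. Gm12250, annotated as an interferon-inducible GTPase-like gene, differed by -2.40, Cd274, the checkpoint ligand PD-L1, by -2.21 and the interferon-induced transcript AW112010 by -2.09. The T cell receptor segment Trav9d-3 differed by -1.97 in the probe set used, while its other probe sets ran from -0.64 to -0.19. Saa3, an acute phase protein, differed by -1.48, Slamf7, a surface receptor of plasma cells and lymphocytes, by -1.36, Ifi30, a thiol reductase of antigen processing, by -1.17, and Casp1, the inflammasome protease, by -0.70. The lysosomal genes Grn and Ctsd differed by -0.44 and -0.41. Malat1, an abundant nuclear noncoding RNA, differed by -0.47, and its second probe set by -0.91, which did not pass.

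Of the genes called higher, 55 were in no list. Beside Tnnc1, a further muscle-type gene was among them, the alpha-actinin Actn2 at 0.58. Others were Aldh1a2, which makes retinoic acid, at 0.56, the adhesion gene Flrt3 at 0.53, the matrix proteoglycan Ogn at 0.52, the fatty acid-binding protein gene Fabp7 at 0.51, the cation channel Trpc5 at 0.50, the adenylyl cyclase Adcy8 at 0.48 and the serotonin receptor Htr1b at 0.41.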
